A study of Homo sapiens with 6 samples.

Results

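Chromatin modifiers and remodellers are the proteins that write, erase and read chemical marks on histones and DNA, and the ATP-driven machines that move nucleosomes. The genes described here were chosen by symbol alone, from the families of lysine demethylases (KDM and PHF), lysine methyltransferases (KMT, SETD, NSD and EZH), acetyltransferases (KAT, EP300 and CREBBP), deacetylases (HDAC), DNA methyltransferases and TET enzymes, bromodomain, CBX and PHD finger readers, and SMARC, ARID and CHD remodellers, with ASXL and NCOR cofactors and a few named genes (EED, SUZ12, ATRX, DAXX, TRIM28, MBD2). 1 KDM gene was left out by that choice and is not reported here. In all, 97 of the 7681 genes in the deposited tables belong to these families, all typed as mRNA.

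The study measured RNA by sequencing in 6 samples of HCT116, an established human colorectal carcinoma cell line, after 48 hours of culture without treatment. 3 samples are labelled WT (wild type) and 3 are labelled Rab27B KO, in which the gene of the small GTPase Rab27B, a regulator of secretory vesicles, is stated to have been deleted with CRISPR/Cas9. The sources used here do not say whether the edited cells are 1 clone or a pool. The data are the authors' own comparison of both genotypes, given for each gene as a log2 fold change (Rab27B KO over WT, so that a negative value means lower RNA in the samples labelled Rab27B KO) and a q-value, a p-value adjusted for the number of genes tested. Values per sample and depth per sample were not analysed here, so no error or spread between replicates can be given beside a fold change.

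The tables hold only genes with a q-value below 0.05, called listed from here on, and the number of genes tested is not known. By the authors' deposited table RAB27B itself had 36.7-fold more RNA in the samples labelled Rab27B KO, which goes against the label at the RNA level. Every direction below is therefore that of the samples as labelled, and would turn if the labels or the ratio were exchanged. Of 7 markers of colonic epithelial cells looked up, KRT8, KRT18 and KRT20 were listed higher, EPCAM, CDH1 and CDX2 lower, and VIL1 was not listed. KRT20 was 4.23-fold, KRT8 1.53-fold and KRT18 1.39-fold higher in the authors' deposited table. EPCAM was 2.23-fold, CDH1 2.22-fold and CDX2 1.68-fold lower there. The part of such differences in the results below was not tested.

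Chromatin regulation rests on enzymes that act against each other. Methyltransferases and acetyltransferases add groups to histone tails, demethylases and deacetylases remove them, and proteins with bromodomains, chromodomains or PHD fingers bind the marked tails and bring further complexes. Methylation of H3K4 and histone acetylation go with active genes, methylation of H3K9 and H3K27 with silent ones, and the remodellers of the SWI/SNF, ISWI and CHD families use ATP to slide, evict or space nucleosomes. In the intestine Polycomb and SWI/SNF proteins are known for holding cell identity, and ARID1A, KMT2C and KMT2D are recurrently mutated in colorectal cancers.

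The promoters below show where transcription of 4 of these genes starts. They were taken from the 20 members whose window holds no annotated exon, 18 lower and 2 higher. Shown are the 2 lower ones with the smallest q-values and both higher ones. Each is the stretch of 250 bases before the most upstream RefSeq start in the GRCh38.p14 build. Capitals mark matches, on either strand, to 6 short promoter motifs: the E-box CACGTG, the CCAAT box CCAAT, the GC box GGGCGG, the ETS motif CCGGAAG, the NRF1 motif GCGCATGCG and the TATA box TATAAA. Matches may overlap each other. NSD1 (chr5:177131548-177131797, plus strand) and ARID1A (chr1:26695765-26696014, plus strand) were lower, and HDAC1 (chr1:32291833-32292082, plus strand) and CBX7 (chr22:39152681-39152930, minus strand) were higher.
NSD1: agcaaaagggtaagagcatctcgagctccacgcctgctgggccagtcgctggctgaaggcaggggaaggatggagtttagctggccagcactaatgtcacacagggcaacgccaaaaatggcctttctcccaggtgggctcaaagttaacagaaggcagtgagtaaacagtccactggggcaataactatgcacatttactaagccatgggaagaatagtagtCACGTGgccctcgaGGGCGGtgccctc
ARID1A: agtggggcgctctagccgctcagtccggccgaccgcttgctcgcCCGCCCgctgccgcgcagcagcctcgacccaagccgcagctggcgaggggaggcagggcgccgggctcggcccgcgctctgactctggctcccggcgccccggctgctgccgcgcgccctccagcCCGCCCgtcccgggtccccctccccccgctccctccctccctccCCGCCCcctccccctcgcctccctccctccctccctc
HDAC1: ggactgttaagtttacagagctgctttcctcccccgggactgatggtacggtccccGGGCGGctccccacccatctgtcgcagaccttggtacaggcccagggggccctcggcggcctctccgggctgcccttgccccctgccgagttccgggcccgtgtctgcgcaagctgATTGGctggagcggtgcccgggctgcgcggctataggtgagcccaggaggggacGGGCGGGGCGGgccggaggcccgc
CBX7: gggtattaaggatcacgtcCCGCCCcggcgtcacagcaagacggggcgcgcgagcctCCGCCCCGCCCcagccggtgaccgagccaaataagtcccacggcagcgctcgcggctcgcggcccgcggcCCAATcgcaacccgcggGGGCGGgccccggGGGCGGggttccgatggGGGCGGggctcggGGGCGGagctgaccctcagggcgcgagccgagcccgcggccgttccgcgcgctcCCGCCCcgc
The NSD1 window held 1 E-box, 1 GC box and 7 CpG dinucleotides. That of ARID1A held 3 GC boxes and 30 CpGs, that of HDAC1 1 CCAAT box, 3 GC boxes and 21 CpGs, and that of CBX7 1 CCAAT box, 8 GC boxes and 41 CpGs.

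A promoter of this length was found for 78 of the 97 members. Only 20 of these windows hold no annotated exon, and windows with exons were kept in all shares below. Their median GC content was 67.4%, beside 66% for all listed genes with a promoter and 62% for all coding genes in the table, and their median number of CpGs was 23 beside 21 and 17. The GC box stood in 59.0% of the members' promoters, 69.5% of those of all listed genes and 55.8% of those of all coding genes. A CCAAT box stood in 21.8% of the members' promoters, 34.9% and 34.5% of the others in the same order. The E-box was found in 14.1%, 9.02% and 7.80%, the ETS motif in 14.1%, 14.7% and 11.8%, the NRF1 motif in 3.85%, 2.96% and 2.37%, and the TATA box in 2.56%, 5.40% and 9.35%. These promoters were thus rich in CpG and mostly without a TATA box, as those of listed genes were in general. Among the 70 promoters of lower members 20% held a CCAAT box and 55.7% a GC box, against 3 and 7 of the 8 promoters of higher members. Over all listed genes a CCAAT box stood in 33.5% of the promoters of lower genes and 36.2% of those of higher genes. For the GC box these shares were 66.7% and 72.2%. The higher members' shares rest on only 8 promoters, and the difference was not tested.

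Most listed chromatin genes were lower in the samples labelled Rab27B KO. Of the 97 members 86 were lower and 11 higher, so that 88.7% were lower, where 49.3% of all listed genes were lower and 50.7% higher. With labels or ratio exchanged, the same members would be 86 higher and 11 lower. Their median log2 fold change was -0.32 in the authors' deposited table, against 0.12 over all listed genes. The direction was shared far more than the size. The median absolute log2 fold change of the members was 0.36, and that of all listed genes 0.41. Only 5 members, 5.15% of them, had an absolute log2 fold change of at least 1, all lower, against 12.6% of all listed genes in either direction and 6.5% in the lower direction. In the band from 0.25 to 0.5 there were 42 members, 35 of them lower, and in the band from 0.5 to 1 there were 25, of which 22 were lower.

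**Figure D1:**
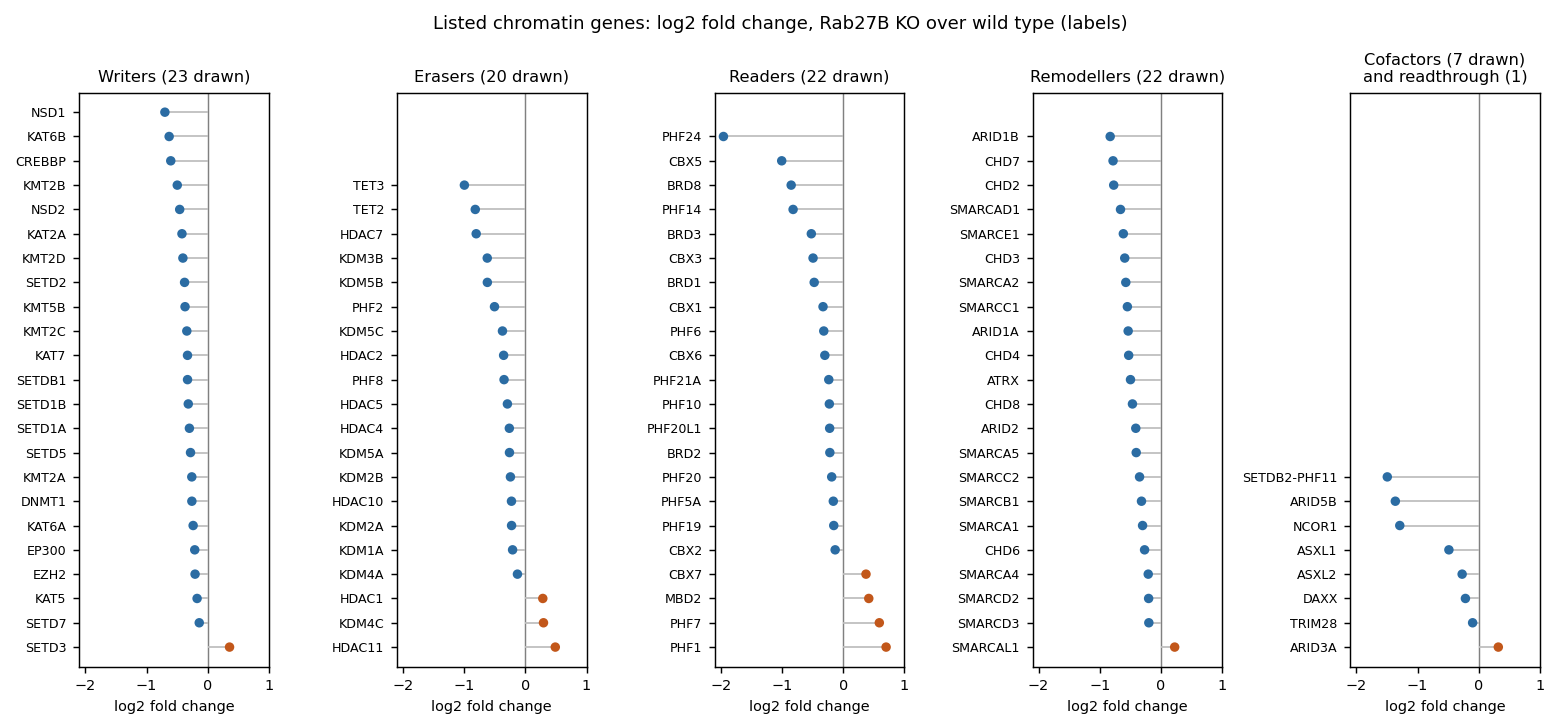
Each point is a listed chromatin gene (2 that are not reported are not drawn), placed by the log2 fold change of Rab27B KO over WT from the authors' deposited table, in 5 panels by role. Blue points are lower and orange points higher; of the 95 genes drawn 85 lie left of 0, and the 5 beyond -1 are PHF24, CBX5, SETDB2-PHF11, ARID5B and NCOR1.

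Being listed was also common in these families. RefSeq holds 148 coding genes whose symbols fit the choice, and 97 of them (65.5%) were listed, where 37.9% of all 20056 RefSeq coding genes were. Both shares count genes that may not be expressed in these cells or were not tested. The shares among tested genes are not known and may lie closer together. By role the share was 84.6% of 26 remodellers, 69.7% of 33 readers, 59.0% of 39 writers, 57.1% of 35 erasers and 57.1% of 14 cofactors. The 51 genes of these families that were not listed either did not pass the threshold or were not tested, and nothing further can be said of them.

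Remodellers leaned lower as a class. Of 22 listed remodellers 21 were lower, with a median log2 change of -0.48 by the authors' deposited table. The SWI/SNF complex, which opens chromatin at promoters and enhancers, had 11 of its 12 remodeller-class genes listed and all 11 lower. SMARCC1 (BAF155), a core scaffold subunit, had a log2 fold change of -0.55 (q = 1.39e-49), and SMARCE1 (BAF57), another core subunit, one of -0.61 (q = 5.38e-49) in the authors' deposited table. The ARID subunits that define the complexes were lower too, with ARID1B (chromosome 6, 156776026 to 157210779) at -0.83, its paralog ARID1A at -0.54 and ARID2, the subunit of the PBAF form, at -0.41 in the authors' deposited table.

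Both alternative SWI/SNF motors were listed lower. SMARCA2 (BRM) stood at -0.57 and SMARCA4 (BRG1), the other ATPase, at -0.21 on the log2 scale in the authors' deposited table. The remaining core and accessory subunits had log2 fold changes of -0.35 for SMARCC2, -0.32 for SMARCB1, and -0.20 for each of SMARCD2 and SMARCD3 in the authors' deposited table. SMARCD1 was not listed. BRD7 and BRD9, bromodomain subunits counted here as readers, were not listed either, and PHF10, a subunit of PBAF, was at -0.23 in the authors' deposited table.

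The CHD remodellers, which carry chromodomains, were listed lower in all 6 cases out of 9 family members. CHD4 (chromosome 12, 6570082 to 6607379) and CHD3, the ATPases of the NuRD corepressor, had log2 fold changes of -0.53 (q = 1.73e-51) and -0.59 in the authors' deposited table. CHD7, mutated in CHARGE syndrome, was at -0.78, CHD2 at -0.77, CHD8, which restrains beta-catenin, at -0.47 and CHD6 at -0.27 in the authors' deposited table. CHD1, CHD5 and CHD9 were not listed. Of the ISWI ATPases, which space nucleosomes, SMARCA5 (SNF2H) stood at -0.40 and SMARCA1 (SNF2L) at -0.30 in the authors' deposited table. ATRX, which deposits the histone variant H3.3 in heterochromatin, was at -0.50, and SMARCAD1, an ATPase of replication and repair, at -0.66 in the authors' deposited table. The exception was SMARCAL1, which anneals DNA at stalled replication forks and was listed higher at 0.23 in the authors' deposited table.

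Writers were lower in 22 of 23 listed cases, with a median log2 change of -0.33 by the authors' deposited table. All 6 H3K4 methyltransferases of the COMPASS type were listed lower. The log2 fold changes were -0.50 for KMT2B, -0.40 for KMT2D, -0.34 for KMT2C, -0.32 for SETD1B, -0.30 for SETD1A and -0.26 for KMT2A in the authors' deposited table. These 6 values run from -0.50 to -0.26. KMT2E, a relative without clear enzyme activity, was not listed.

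The H3K36 methyltransferases mark transcribed gene bodies, and all 3 that were listed were lower. NSD1 (chromosome 5, 177131798 to 177300213) had a log2 fold change of -0.70 (q = 6.20e-40), NSD2 one of -0.46 (q = 8.68e-31) and SETD2, the trimethylating enzyme, one of -0.38 in the authors' deposited table. NSD3 was not listed. Of the enzymes of silent chromatin, SETDB1, which methylates H3K9 where TRIM28 recruits it, was at -0.33 and KMT5B, which methylates H4K20, at -0.37 in the authors' deposited table. SETD5, a SET domain protein tied to the HDAC3 corepressor, stood at -0.28 and SETD7, which methylates H3K4 and other proteins, at -0.14 in the authors' deposited table. SETD3, the sole writer listed higher, at 0.36 in the authors' deposited table, methylates actin and not a histone.

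Acetyltransferases were lower in all 7 listed cases out of 9 genes. CREBBP (CBP) had a log2 fold change of -0.60 (q = 1.76e-38) and its paralog EP300 (p300) one of -0.21 in the authors' deposited table. Likewise the paralogs KAT6B (MORF) and KAT6A (MOZ) stood at -0.63 and -0.24 in the authors' deposited table. The others were KAT2A (GCN5) at -0.42, KAT7 (HBO1) at -0.33 and KAT5 (TIP60) at -0.17 in the authors' deposited table. Of the 4 core genes of PRC2, which methylates H3K27, EZH2 alone was listed, at -0.21 in the authors' deposited table, and EZH1, EED and SUZ12 were not. Of the DNA methyltransferases the maintenance enzyme DNMT1 was listed at -0.26 in the authors' deposited table, and the de novo enzymes DNMT3A and DNMT3B were not listed.

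Erasers were lower in 17 of 20 listed cases, with a median log2 change of -0.28 by the authors' deposited table. The TET enzymes, which oxidise methylcytosine as the step toward DNA demethylation, had the lowest values. TET3 (chromosome 2, 73983631 to 74135498) was at -0.998 (q = 2.78e-27) and TET2 at -0.82 in the authors' deposited table, which is 2.00-fold and 1.77-fold lower. TET1 was not listed. Both sides of DNA methylation were therefore represented among the lower genes, DNMT1 with a smaller value than the TET enzymes.

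Of 21 histone demethylase genes 11 were listed, 10 of them lower. KDM3B, which acts on H3K9, had a log2 fold change of -0.62 (q = 4.60e-46), and KDM5B, which removes H3K4 methylation, also one of -0.62 in the authors' deposited table. The other H3K4 demethylases were KDM5C at -0.37, KDM5A at -0.26 and KDM1A (LSD1) at -0.21 in the authors' deposited table. PHF2 and PHF8, PHD proteins with a demethylase domain, stood at -0.51 and -0.35, and the CpG-binding KDM2B and KDM2A at -0.24 and -0.23 in the authors' deposited table. Within the KDM4 family, which acts on H3K9 and H3K36, KDM4A was at -0.13 and KDM4C at 0.30 in the authors' deposited table, so these paralogs differed in direction. The H3K27 demethylases KDM6A and KDM6B were not listed.

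Histone deacetylases were split 5 lower to 2 higher. The class I enzymes HDAC1 and HDAC2, near-identical partners in the same corepressor complexes, were listed in opposite directions. HDAC1 was 1.22-fold higher and HDAC2 1.28-fold lower in the authors' deposited table, at log2 fold changes of 0.28 and -0.36. HDAC3 and HDAC8, the other class I enzymes, were not listed. The class IIa enzymes, which shuttle between nucleus and cytoplasm, were lower in all 3 listed cases, HDAC7 at -0.80 (q = 2.46e-36), HDAC5 at -0.29 and HDAC4 at -0.26 in the authors' deposited table. HDAC10, a polyamine deacetylase, stood at -0.23 and HDAC11 at 0.49 in the authors' deposited table.

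Readers held the most members that were higher, 5 of 23, beside 18 that were lower, and their median log2 fold change was -0.23 in the authors' deposited table. The 3 HP1 proteins, which bind methylated H3K9 in heterochromatin, were all lower. CBX5 (HP1 alpha; chromosome 12, 54230942 to 54280122) was 2.01-fold lower at -1.005 (q = 5.21e-105) in the authors' deposited table, the member with the smallest q-value, at rank 112 of the 7681 listed genes. CBX3 (HP1 gamma) was at -0.49 and CBX1 (HP1 beta) at -0.33 in the authors' deposited table.

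The Polycomb CBX proteins, which bind methylated H3K27 within PRC1, went both ways. CBX7 was higher, at 0.37 in the authors' deposited table. CBX6 stood at -0.30 and CBX2 at -0.13 in the authors' deposited table, and CBX8 was not listed.

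The bromodomain readers, which bind acetylated histones, were lower in all 4 listed cases. BRD8, of the TIP60 complex, was 1.80-fold lower at -0.85 (q = 1.61e-38) in the authors' deposited table. The BET proteins BRD3 and BRD2 were at -0.52 and -0.22, and BRD1, a scaffold of acetyltransferase complexes, at -0.47 in the authors' deposited table.

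The PHD finger readers were 9 lower and 2 higher. The PRC2 accessory paralogs PHF1 and PHF19, which bring PRC2 to CpG islands, were listed in opposite directions, PHF1 at 0.70 and PHF19 at -0.15 in the authors' deposited table. PHF7, a testis PHD and RING protein, was at 0.59 in the authors' deposited table. The other lower genes were PHF14 at -0.82, PHF6, mutated in leukaemia, at -0.32, PHF21A, which binds unmethylated H3K4, at -0.23, and PHF20L1 and PHF20, Tudor proteins, at -0.22 and -0.19 in the authors' deposited table. PHF5A, a splicing factor subunit despite its name, was at -0.16 in the authors' deposited table. PHF24 had the lowest log2 fold change of the members, -1.96, but a q-value of 0.0498 in the authors' deposited table, just inside the threshold. MBD2, which binds methylated DNA within NuRD, was 1.34-fold higher at 0.42 in the authors' deposited table. The MBD2 gene lies 493 kb from RAB27B on chromosome 18.

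**Figure D2:**
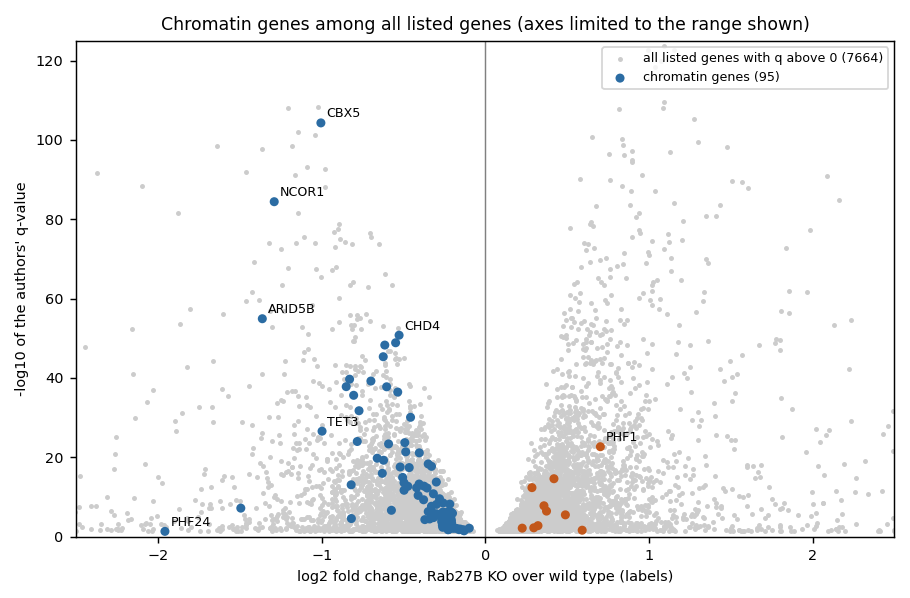
The 95 chromatin genes drawn (blue lower, orange higher) lie over all listed genes with a q-value above 0 (grey, 7664 genes), with the log2 fold change on the x axis and -log10 of the authors' q-value on the y axis. The axes leave out 284 genes with larger values, none of them a chromatin gene; CBX5, NCOR1 and ARID5B combine a log2 fold change of -1 or lower with small q-values.

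Cofactors were lower in 7 of 8 listed cases. NCOR1 (chromosome 17, 16029157 to 16215534), the nuclear receptor corepressor that activates HDAC3, was 2.45-fold lower at -1.29 (q = 3.82e-85) in the authors' deposited table. ARID5B (chromosome 10, 61901699 to 62096944), a DNA-binding partner of the demethylase PHF2, was 2.57-fold lower at -1.36 (q = 1.22e-55) in the authors' deposited table. ASXL1 and ASXL2, partners of the histone deubiquitinase BAP1, stood at -0.49 (q = 4.42e-22 for ASXL1) and -0.27 in the authors' deposited table.

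DAXX, the H3.3 chaperone that works with ATRX, was at -0.22 and TRIM28 (KAP1), the corepressor of KRAB zinc-finger proteins, at -0.10 in the authors' deposited table, the latter being the smallest absolute value of all members. ARID3A, a DNA-binding factor, was the cofactor listed higher, at 0.32 in the authors' deposited table. SETDB2-PHF11, a readthrough transcript unit joining the genes SETDB2 and PHF11 on chromosome 13, was at -1.49 (q = 6.94e-08) in the authors' deposited table. Neither SETDB2 nor PHF11 was listed by itself, and reads of the 3 overlapping genes can be shared, so that value is uncertain.

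Most listed partners of these proteins were lower as well. In 8 lists of 143 partner genes outside the chosen families, 88 were listed (61.5%, beside 37.9% of all coding genes), 66 lower (75%, beside 49.3% of all listed genes) and 22 higher, with a median log2 change of -0.26 by the authors' deposited table. For the partners too the share listed among tested genes is not known. Of 23 partners of acetyltransferases 13 were listed, all lower. Of 12 COMPASS partners 4 were listed (33.3%), all lower. KANSL1 and BRPF3, scaffolds of acetyltransferase complexes, were at -0.59 and -0.42, and HCFC1 and PAXIP1, of COMPASS-type complexes, at -0.48 and -0.39 in the authors' deposited table.

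The partners of INO80, SRCAP, TIP60 and ISWI were 13 lower and 4 higher. BPTF and BAZ1B, large subunits of ISWI complexes, stood at -0.58 and -0.46 in the authors' deposited table. The Sin3, NuRD and CoREST partners were 10 lower and 3 higher, with MTA2 at -0.47 and SIN3A at -0.39 in the authors' deposited table. In the mixed list of other writers, erasers and readers 15 were lower and 7 higher, and its smallest q-values belonged to ZMYND11 at -0.87 and JMJD1C at -0.73 in the authors' deposited table.

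SWI/SNF and Polycomb partners were listed in both directions. Of 7 listed SWI/SNF partners 4 were lower and 3 higher, where all 12 listed members of the complex (PHF10 included) were lower. PBRM1, the defining subunit of PBAF, was at -0.55 and DPF2 at -0.36 in the authors' deposited table. DPF3, a paralog of DPF2 chosen after its value was seen, was at 1.51 with q = 0.0023 in the authors' deposited table. Of 9 listed PRC1 and PR-DUB partners 5 were lower and 4 higher, PHC1 being at -0.79 and PCGF3 at -0.60 in the authors' deposited table. For PRC2 the cofactor JARID2 was at 0.81 and the histone-binding subunit RBBP4 at -0.46 in the authors' deposited table.

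**Figure D3:**
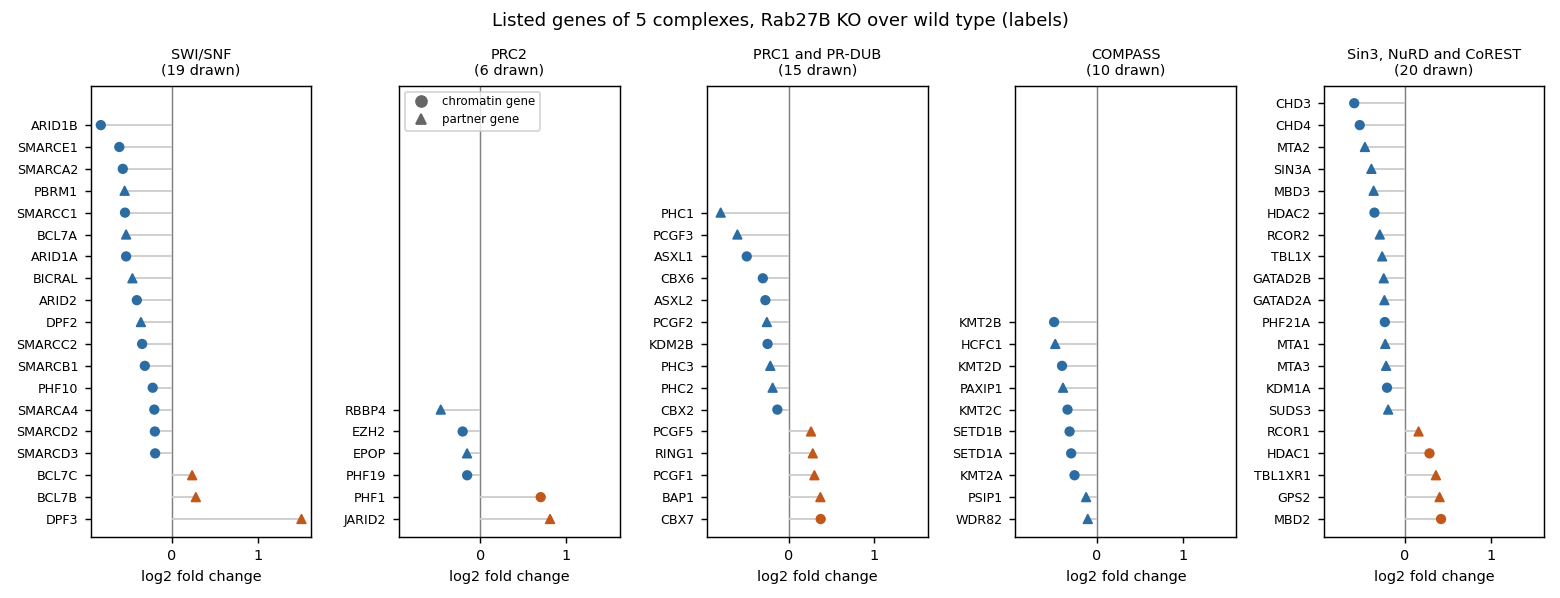
Listed genes of 5 groups of complexes are placed by the log2 fold change of Rab27B KO over WT (x axis, from the authors' deposited table), circles for chromatin genes of the chosen families and triangles for partners. All 10 listed COMPASS genes lie left of 0, whereas the PRC1 and PR-DUB panel holds 10 lower and 5 higher genes and the PRC2 panel 4 lower and 2 higher. The Sin3, NuRD and CoREST panel includes GPS2, TBL1X and TBL1XR1, subunits of the NCOR1 corepressor complex.

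Genes of the same symbol family did not always share a direction. In 7 families by symbol (ARID, CBX, HDAC, KDM, PHF, SETD and SMARC) at least 1 listed gene was higher and at least 1 lower. Such families also hold genes that are not paralogs, as SMARCAL1 and SMARCB1. Among the paralogs listed in opposite directions were HDAC1 and HDAC2, KDM4A and KDM4C, and PHF1 and PHF19. In no other family with more than 1 listed member (among them BRD, CHD, KAT, KMT2, NSD, TET, ASXL, and CREBBP with EP300) was a gene listed higher. The 11 higher members were spread over the roles, with 5 readers, 3 erasers, 1 writer, 1 remodeller and 1 cofactor. Of these, SETD3 is known to act on actin and SMARCAL1 at replication forks. Lower members also include genes of this kind, as the splicing subunit PHF5A and the polyamine deacetylase HDAC10.

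Chromatin genes are long, and length went with direction across all listed genes. In GENCODE release 29 the longest coding transcripts had a median of 1077 codons and 20 exons over the 96 members found there, against 486 codons and 9 exons for all listed genes. When the listed genes were split by coding length into 4 bands of near-equal size, from short to long, 29.2%, 42.1%, 54.8% and 69.3% of the other listed genes were lower. Among the members 4 of 5, 7 of 11, 12 of 16 and 62 of 64 were lower in the same bands. The members' share was thus higher in each band, most of them lay in the longest one (over 797 codons), and there 96.9% of the members were lower beside 69.3% of the other genes. What part length has in the members' direction was not tested beyond these values. By coding length the HP1 genes lie at the other end, CBX5 with 191 codons, CBX3 with 183 and CBX1 with 185. By length of the whole transcript CBX5 does not, with 11528 bases beside a median of 3173 for all listed genes. The transcripts of CBX3 and CBX1 have 2128 and 2422 bases.

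**Figure D4:**
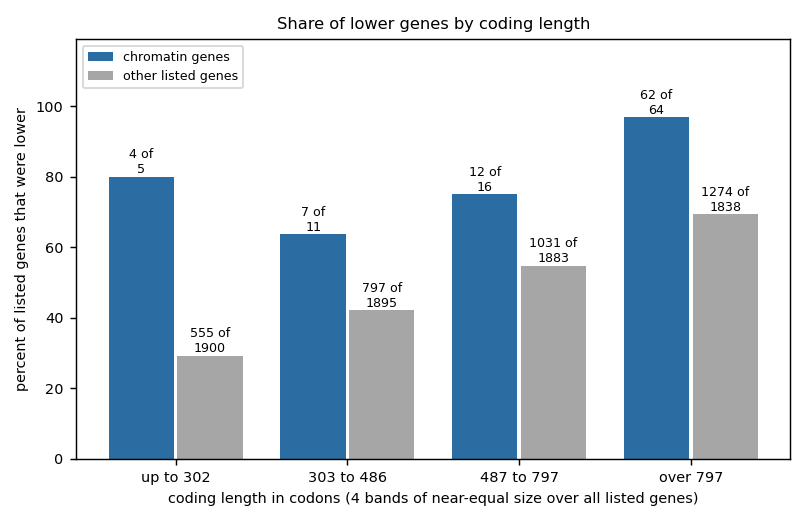
Bars give the percent of listed genes that were lower, by band of coding length in codons, for chromatin genes (blue) and the other listed genes (grey), with the numbers above each bar. The grey bars rise from 29.2% to 69.3%, and the blue bar stands above the grey one in each band, at 62 of 64 in the longest.

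GC content of the transcript did not set the members apart, with a median of 50.9% for members and for all listed genes. In the lowest of 4 bands of GC content all 15 members were lower and in the highest band 17 of 22, where 57.1% and 37.9% of the other listed genes were lower. The share of lower genes also differed between chromosomes. Chromosomes 4, 7, 13 and 15 were set apart because few of their listed genes were higher in these same data. Their large share of lower genes therefore follows from that choice. Chromosome 21, where 63.8% of the listed genes were lower, was not among them. On chromosomes 4, 7, 13 and 15, where 76.8% of the other listed genes were lower, all 12 members were lower (SMARCA5, SMARCAD1, NSD2, SETD7, TET2, CBX3, EZH2, KMT2C, PHF14, SMARCD3, SETDB2-PHF11 and CHD2). On the remaining chromosomes 74 of 85 members (87.1%) were lower, beside 44.0% of the other listed genes. On chromosome 12 all 10 members were lower and on chromosome 17 9 of 10, while 58.0% and 56.2% of the other listed genes there were higher.

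Some values rest on reads that near-identical or overlapping genes could share. RefSeq names pseudogenes of 11 members, among them CBX3 with 10, SMARCE1 and PHF5A with 7 each, CBX1 with 5, NCOR1 and KMT2C with 4 each, HDAC1 with 2 and CBX5 with 1. The exons of 9 members overlap those of another coding gene model in GENCODE, by at least 10% for KMT2A, KAT2A and PHF10. The sources used here do not say how the authors assigned such reads or whether strand was used. Without these genes and the readthrough, 68 of 77 members (88.3%) were lower.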

How the data were processed

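RNA of 6 HCT116 samples (3 labelled WT, 3 labelled Rab27B KO, grouped by title) was sequenced. HISAT, Bowtie2 and the build GRCh38 are named, per the submitters' processing notes, without their roles; the sources used here do not name the counting, scaling or test. The 2 deposited tables hold, per the file headers, the log2 fold change of Rab27B KO over WT and a q-value for each gene, and for higher genes the deposited linear ratio (fold), which was not used. All q-values are below 0.05. The series' design text calls the replicates biological. The tables give no values for single samples, so depth and precision are unknown.

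No test was added. Symbols were stripped of quotes and matched to the choice. Members were counted by direction, and folds printed are 2 to the power of the absolute log2 value. Gene IDs were matched to RefSeq GRCh38.p14 (7656 of 7681, all 97 members); lengths came from GENCODE release 29 (7612 genes, 96 members). Coordinates are 1-based; promoter sequences are RefSeq's. Every member is named, except a few genes that are counted but not reported here, with its log2 fold change, with a q-value for those of at least 1 in size and the 3 smallest per role; of each partner list, up to 2 genes with the smallest q-value are named. The members, roles, partner lists and alternatives were chosen with earlier results of these data known. The 4 chromosomes left out below were picked for their low share of higher genes in these data. The direction counts and the choice by symbol were checked on made-up data. Alternatives were a stricter q-value (0.01), a minimum size of 1 on the log2 scale, leaving out 4 chromosomes, RefSeq symbols and a minimum protein length; limits to the longest genes and to genes without shared reads were added after seeing the data. Python 3.11.15, pandas 2.3.3 and matplotlib 3.10.9 were used.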

Additional observations from a re-analysis of the deposited data

How the results depend on the processing

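The members' counts by direction were 76 lower and 10 higher at a q-value below 0.01, 74 and 11 without chromosomes 4, 7, 13 and 15, 86 and 11 with current RefSeq symbols, and 68 and 9 without genes whose reads can be shared. At an absolute log2 fold change of at least 1 they were 5 and 0, a share of 100% lower, beside 51.5% of all 968 listed genes of that size. These 5 include PHF24, just inside the q-value threshold, and the readthrough SETDB2-PHF11, whose value is uncertain. Of all listed genes 48.9% were lower at a q-value below 0.01 and 44.6% without the 4 chromosomes. The share lower was 95.8% (69 of 72) for members at or above the 25th percentile of members' coding lengths (593.75 codons), where 65.9% of all listed genes of that length were lower. Above 797 codons, the longest band, it was 96.9%, and there without the 4 chromosomes 96.5% (55 of 57), against 70.2% and 67.0% of all listed genes; the alternatives on the longest band and on shared reads were chosen after seeing the data. The share lower of the partner genes was 76.6% at a q-value below 0.01 and 73.4% without the 4 chromosomes. For all listed genes it was 48.9% and 44.6%, as above. No paired analysis was possible because the tables hold no values per sample, and for the same reason no replicate could be left out. Members with q-values from 0.01 to 0.05 number 11, PHF24 and PHF7 among them.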

Other observations

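Genes that share a start region with a chromatin gene were looked up after the data were seen. Of the 97 members 7 had a coding gene starting on the opposite strand within 1000 bases upstream of the start of their longest coding transcript in GENCODE release 29, and 5 of these neighbours were listed, 4 of them in the same direction as the chromatin gene. CBX5 and CBX3 lie back to back with genes of RNA-binding hnRNP proteins, and both pairs were lower. HNRNPA1, 653 bases from CBX5, had a log2 fold change of -0.41 and HNRNPA2B1, 416 bases from CBX3, one of -0.25 in the authors' deposited table. BAP1, the deubiquitinase that ASXL proteins activate, starts 307 bases from PHF7, and both were higher, BAP1 at 0.37 in the authors' deposited table. CCNK, a cyclin 530 bases from SETD3, was at 0.10, in the same direction as SETD3, in the authors' deposited table. In each pair that moved the same way the neighbour's change was smaller than that of the chromatin gene.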
